A study of Mus musculus with 6 samples.

Results

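The genes encoding the translation initiation factors were followed in T cells of wild-type and Drp1-/- mice. Drp1, the product of Dnm1l, is the GTPase that cuts mitochondria in division. Members were all rows of the count table whose symbol starts with Eif and a digit from 1 to 6, except the eIF2 kinases (Eif2ak), Eif2s3x, Eif2s3y and names containing -ps. This rule took 50 of the 45808 rows and left out 12 of the 62 rows with such a start. The libraries were 3 from wild-type mice and 3 from Drp1-/- mice (KO), all on a C57BL/6 background and 2 months of age. In both groups spleen T cells were activated in culture with antibodies to CD3 and CD28 and with IL-2, a T cell growth factor, before their polyadenylated RNA was sequenced. The labels name no Cre or promoter behind the deletion, and they do not say whether replicates came from separate animals or cultures or from pools. The p-values therefore measure only the spread between these libraries, which may be technical.

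Initiation brings a ribosome, an initiator tRNA and an mRNA start codon together. The factor eIF2 carries the initiator tRNA as a GTP complex and is recharged by its exchange factor eIF2B, while eIF1, eIF1A, eIF3 and eIF5 bind the small ribosomal subunit and govern scanning and start codon choice. The eIF4F complex, made of the cap binder eIF4E, the scaffold eIF4G and the RNA helicase eIF4A, loads the mRNA, and eIF5B then joins the large subunit. T cells raise their protein synthesis strongly when they are activated, and eIF2 phosphorylation and the eIF4E-binding proteins are the best known brakes on the pathway.

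The sequence shown here is the stretch before the transcription start of 4 members, because these windows share 1 short motif while their genes went in both directions. Promoter windows of 250 bases before the start were taken from RefSeq on GRCm38.p6, where 38 of the 50 members matched by symbol, with 50 windows in all. The motif searched was CACGTG, the E-box hexamer bound by Myc, Max and other helix-loop-helix proteins, which reads the same on both strands. Each window is written 5′ to 3′ on the strand of its gene in lower case, with the motif in capitals. Eif4g1, the main eIF4G scaffold, has its window at chr16:20672477-20672726 on the plus strand and the motif starting at -54 from the start. Eif4a1, the main eIF4A helicase, has its window at chr11:69672424-69672673 on the minus strand and the motif at -189. Eif5a, the hypusine-bearing factor eIF5A, has its window at chr11:69921387-69921636 on the minus strand and the motif at -74. This is 1 of 6 RefSeq windows of Eif5a, of which 3 hold the motif, at 2 distinct sites, and 3 do not. Eif3f, an outer subunit of eIF3, has its window at chr7:108934165-108934414 on the plus strand and the motif at -68. For Eif4g1 and Eif5a the RefSeq start used lies inside the wider gene bounds of the GENCODE annotation.
Eif4g1: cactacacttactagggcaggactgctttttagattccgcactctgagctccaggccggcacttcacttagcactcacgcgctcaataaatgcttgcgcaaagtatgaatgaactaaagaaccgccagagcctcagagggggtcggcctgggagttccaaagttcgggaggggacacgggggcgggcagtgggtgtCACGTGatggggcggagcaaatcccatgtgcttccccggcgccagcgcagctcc
Eif4a1: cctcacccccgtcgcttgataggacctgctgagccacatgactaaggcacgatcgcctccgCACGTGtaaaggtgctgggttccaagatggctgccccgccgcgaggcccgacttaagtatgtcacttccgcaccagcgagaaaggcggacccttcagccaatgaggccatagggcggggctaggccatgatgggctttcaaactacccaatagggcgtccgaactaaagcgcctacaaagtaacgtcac
Eif5a: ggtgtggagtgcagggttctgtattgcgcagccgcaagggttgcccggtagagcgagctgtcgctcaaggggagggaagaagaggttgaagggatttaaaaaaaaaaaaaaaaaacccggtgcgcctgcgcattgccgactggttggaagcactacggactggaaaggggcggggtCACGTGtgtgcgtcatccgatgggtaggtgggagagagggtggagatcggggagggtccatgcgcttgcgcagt
Eif3f: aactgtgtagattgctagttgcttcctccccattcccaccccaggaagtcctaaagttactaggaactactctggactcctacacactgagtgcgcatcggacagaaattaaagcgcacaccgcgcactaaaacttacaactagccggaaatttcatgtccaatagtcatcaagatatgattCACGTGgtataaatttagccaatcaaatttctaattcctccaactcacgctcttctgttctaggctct

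The hexamer occurred in 11 of the 50 member windows (22%) and in 6.02% of all 32851 RefSeq windows of the same length. Overlapping windows of Eif5a count 1 of these sites more than once. Counted by gene, 9 of the 38 members held it (23.7%), against 6.86% of all genes and 9.82% of the 9675 tested genes found in the table. The 9 members with the motif included genes of every outcome described below. It was in 5 of the 19 members that were higher in KO, 3 of the 7 that were lower and 1 of the 11 that were not called, and the remaining matched member was not tested. A match describes the letters of a window only, and binding was not measured.

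Total counts ran from 24738017 to 34730475 per library. Summed CPM (counts scaled to a common library size with TMM factors) of 8 T cell markers was 3171 to 3298 in wild type and 2606 to 2703 in KO, with 7 of 8 markers lower and none at 0. NK cell markers summed to 16.2 to 23.1 CPM in wild type and 33.8 to 40.5 in KO, with 3 of 3 tested markers higher. Most of that sum was Eomes, at 15.1, 21.1 and 19.4 CPM in wild type and 31.2, 36.4 and 30.8 in KO. The other NK markers called higher, Ncr1 and Klrb1c, reached at most 0.774 and 2.935 CPM, and Klra8 was not tested. Platelet markers summed to 6.31 to 8.29 and 15.3 to 16.1, with 2 of 2 tested markers higher. Most of this was Itga2b, at 5.88, 7.76 and 7.40 CPM in wild type and 13.4, 13.0 and 13.2 in KO. B cell markers stood at 143 to 156 and 142 to 151 CPM, with 1 of 5 tested markers higher and none lower. Dendritic cell markers reached at most 3.92 CPM, with Xcr1 and Siglech at 0 and 1 of 2 tested markers lower. Macrophage markers reached at most 4.38 CPM, with 1 of 2 tested markers higher and 1 lower. Erythroid markers reached at most 0.161 CPM and neutrophil markers at most 0.317 CPM, with S100a8, S100a9 and Elane at 0. The part of these cell types in the results was not tested, and in bulk RNA fewer cells of a type and less RNA per cell cannot be told apart. Xist, the RNA of the inactive X chromosome, had 0, 3 and 1 counts in wild type and 16862, 12950 and 14744 in KO, while the Y-linked Ddx3y, Uty and Kdm5d were counted in all 6 libraries and were lower in KO. Genotype and the sex make-up of the libraries therefore cannot be told apart. Dnm1l (chr16:16312230-16358959), the targeted gene, fell from 119 ± 3.76 to 95.4 ± 4.57 CPM (SD, n = 3), a log2 change of -0.32 ± 0.05 (SE, edgeR adjusted p = 0.000728). The counts are per gene, not per exon, and the labels do not say which exons were deleted, so the loss of Drp1 itself was not measured. Wild-type replicate 1 stood apart on the first principal component, at -44.9 against -20.9 and -20.2 for its fellows. It was also the wild-type library farthest from the KO mean in 27 of the 34 called members.

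Most initiation factor genes changed, more of them upward than downward and all by modest amounts. Of the 50 members, 48 had enough counts to be tested, and 34 of these were called at an adjusted p under 0.05 (70.8%), where 52.9% of all 14209 tested genes were called. In KO, 23 members rose (47.9%, against 26.7% of all tested genes) and 11 fell (22.9%, against 26.1%), and 14 were not called. The share that rose was above the background, and the share that fell was near it. Counts by class below are of few genes and stand against the same shares, 26.7% higher and 26.1% lower. The median log2 fold change was 0.18 over the tested members and 0.01 over all tested genes. Member changes ran from -0.63 for Eif4e3 to 0.81 for Eif5a2, and 6 called members changed by at least 1.5-fold, none of them by 2-fold. Called changes had a median size of 0.30 (log2) among members and 0.41 among all called genes.

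All 3 KO libraries lay above all 3 wild-type libraries in 27 tested members (56.3%, against 32.5% of all tested genes) and below them in 13 (27.1%, against 30.8%), and the groups overlapped in 8. Summed, the 50 rows took 1.19%, 1.20% and 1.19% of all counts in wild type and 1.29%, 1.36% and 1.32% in KO. The KO libraries were all higher, and the exact permutation test gave p = 0.1, the smallest it can give with 3 against 3. Scaling by library totals alone moves the median of all genes up by 0.07, and then 74.3% of member calls were higher rather than 67.6%, as were 62.0% of all calls rather than 50.6%. Without wild-type replicate 1 the calls were 24 higher and 11 lower, with a median of 0.13.

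**Figure D1:**
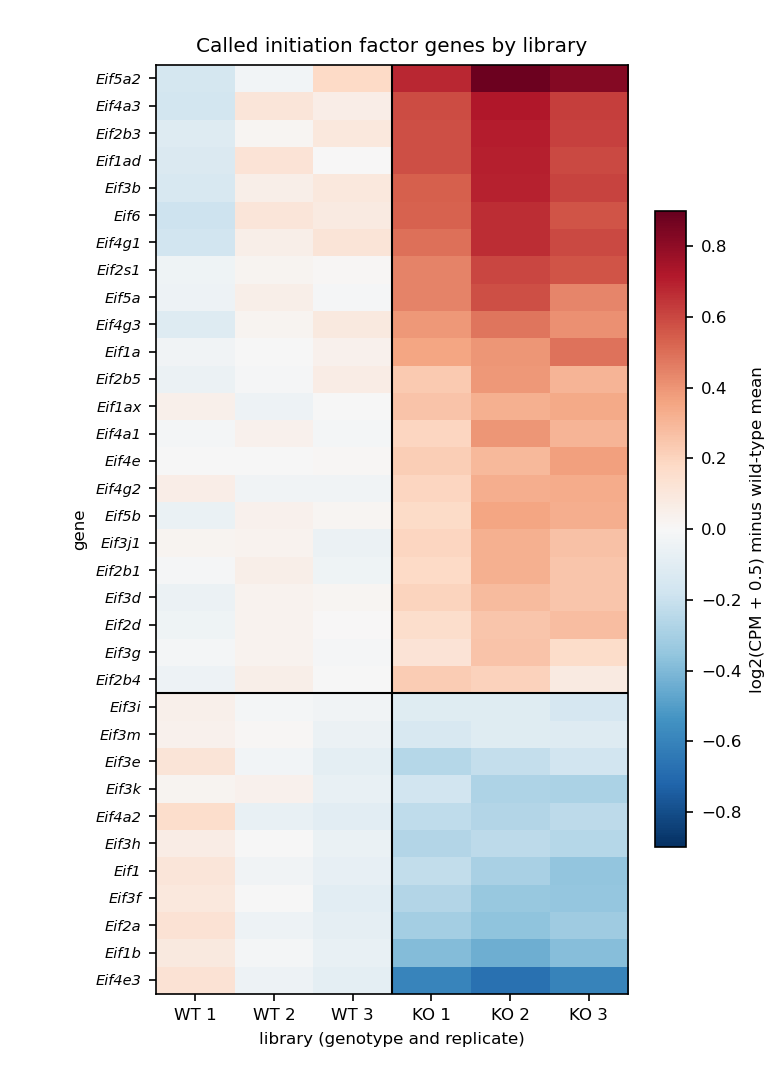
Each cell gives log2(CPM + 0.5) of a gene in a library minus the mean of the 3 wild-type libraries, for the 34 members called at an adjusted p under 0.05, ordered by fitted fold change. The 23 members above the horizontal line are higher in every KO library and the 11 below it are lower in every KO library, and wild-type replicate 1 is the wild-type library farthest from KO in 27 of the 34.

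Start codon selection had members in both directions, split by factor. Of 5 tested genes 2 rose, 2 fell and 1 was not called. The median log2 change was -0.03, and it was 0.04 with library totals alone or without wild-type replicate 1. Eif1a, which encodes a form of eIF1A, the factor that holds the scanning subunit open, gave 74.9, 76.2 and 78.5 CPM in wild type and 97.8, 101 and 108 CPM in KO. No KO library reached down to the wild-type range, and the gene rose by 0.42 ± 0.05 on the log2 scale (SE, edgeR adjusted p = 0.000178). Its X-linked partner Eif1ax (chrX:159372178-159389928) rose by 0.30 ± 0.05 (edgeR adjusted p = 0.000533), and the X chromosome is where the Xist difference described above lies. The 2 genes of eIF1, the factor that guards against wrong start codons, went the other way. Eif1b (chr9:120492232-120495330) gave 48.3, 44.9 and 43.5 CPM in wild type and 34.5, 33.4 and 34.8 CPM in KO, with no overlap. It fell by 24.7% (log2 -0.41 ± 0.06, edgeR adjusted p = 0.000299). Eif1, the more abundant gene per length, fell from 324 ± 22.0 to 265 ± 11.9 CPM (SD, n = 3; log2 -0.29 ± 0.06, edgeR adjusted p = 0.00198). Eif5, the GTPase activator of eIF2, was not called, at 231 ± 19.5 and 226 ± 10.8 CPM (log2 -0.03, edgeR adjusted p = 0.687).

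Among the carriers of the initiator tRNA, the eIF2 subunits did not move together. Eif2s1 (chr12:78861819-78887010), the alpha subunit whose phosphorylation slows initiation, had 138, 145 and 143 CPM in wild type and 194, 216 and 210.5 CPM in KO. The KO libraries were all well above the wild-type ones, and the gene rose by 45.5% (log2 0.54 ± 0.05, edgeR adjusted p = 5.33e-05). Eif2s2, the beta subunit, was not called (log2 -0.04 ± 0.06, edgeR adjusted p = 0.566), with 279 ± 19.4 CPM in wild type and 270.5 ± 11.3 in KO. The gamma subunit genes Eif2s3x and Eif2s3y were outside the rule. The 2 single-chain factors that can bring tRNA to some mRNAs without eIF2 went in opposite directions. Eif2a (chr3:58525821-58557501) gave 261, 231 and 226 CPM in wild type and 193, 186 and 192 CPM in KO. It fell by 20.7% with no overlap (log2 -0.33 ± 0.06, edgeR adjusted p = 0.000961), while Eif2d rose by 0.23 on the log2 scale. The class had 2 rises, 1 fall and 1 gene not called among 4, with a median of 0.09.

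The exchange factor eIF2B, a decamer built from pairs of its 5 subunits, had rises only. Of its 5 genes 4 rose, none fell and 1 was not called, with a median log2 change of 0.25. Eif2b3 (chr4:117019402-117087306), the gamma subunit of its catalytic part, gave 25.2, 27.7 and 29.3 CPM in wild type and 41.2, 44.9 and 42.1 CPM in KO. Every KO library was above every wild-type library, a rise of 55.6% (log2 0.64 ± 0.07, edgeR adjusted p = 7.97e-05). Eif2b5, the catalytic epsilon subunit, rose by 0.31. In the regulatory part, Eif2b1 (alpha) rose by 0.25 and Eif2b4 (delta) by 0.18, but Eif2b4 was not called when wild-type replicate 3 (edgeR adjusted p = 0.0835), KO replicate 1 (0.112) or KO replicate 2 (0.101) was left out, nor by DESeq2 (adjusted p = 0.0540). Eif2b2, the beta subunit, held 54.0 ± 0.341 CPM in wild type and 53.4 ± 0.746 in KO and was not called.

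The eIF3 complex, the largest initiation factor and a scaffold on the small ribosomal subunit, changed in both directions. Of its 14 tested genes 4 rose, 6 fell and 4 were not called, and the median log2 change was -0.03. Over all tested genes 26.7% rose and 26.1% fell. Which direction held more calls depended on the scaling and the libraries: upper quartile factors or library totals alone gave 5 rises and 4 falls, and leaving out wild-type replicate 2, KO replicate 1 or KO replicate 3 gave 4 of each. Subunits a, b, c, g and i, which include the counterparts of the yeast core, had 2 rises, 1 fall and 2 genes not called, with a median of 0.01. Eif3b (chr5:140419328-140443360), the scaffold that binds g and i, gave 191, 219 and 225 CPM in wild type and 307, 342 and 323 CPM in KO. The ranges were far apart, and it rose by 52.9% (log2 0.61 ± 0.07, edgeR adjusted p = 8.94e-05). Of its binding partners Eif3g rose and Eif3i fell. Eif3i (chr4:129591960-129600648) gave 349, 335 and 331 CPM in wild type and 314, 314 and 305 CPM in KO. The KO libraries were all lower by a narrow margin, and the gene fell by 8.16% (log2 -0.12 ± 0.04, edgeR adjusted p = 0.0329). With library totals alone the change was -0.05 and was not called (edgeR adjusted p = 0.341). Leaving out wild-type replicate 2 or any 1 KO library also ended the call of Eif3i. Upper quartile factors (edgeR adjusted p = 0.0576) or no filter (0.0545) ended it too. The rise of Eif3g was 0.18, a call lost without KO replicate 2 (edgeR adjusted p = 0.0609). Eif3a, the largest subunit, and Eif3c were not called, with log2 changes of -0.08 and 0.01.

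The other 7 subunits, d, e, f, h, k, l and m, mostly fell: 5 fell, 1 rose and 1 was not called, with a median of -0.22 (-0.14 with library totals alone). Eif3f (chr7:108934417-108942951) gave 692, 646 and 607 CPM in wild type and 539, 512 and 508 CPM in KO. Its KO libraries all lay below the wild-type ones, and it fell by 19.9% (log2 -0.32 ± 0.05, edgeR adjusted p = 0.000761). Eif3h fell by 0.25, Eif3k by 0.24, Eif3e by 0.22 and Eif3m by 0.12 on the log2 scale. With library totals alone Eif3e kept its call at -0.14, and Eif3m was not called at -0.05 (adjusted p = 0.351). The call of Eif3m was also lost without wild-type replicate 2 or any 1 KO library. Upper quartile factors (edgeR adjusted p = 0.0619) or no filter (0.0606) ended it too. The exception was Eif3d (chr15:77958998-77970813), the subunit with a cap-binding fold of its own, which gave 335, 355 and 353 CPM in wild type and 400.0, 423 and 414 CPM in KO. These groups did not overlap either, and Eif3d rose by 18.6% (log2 0.25 ± 0.04, edgeR adjusted p = 0.00116). Of its exon bases 43.3% overlap Gm17638 on the opposite strand, and the strand setting of the counting is not given in the sources used here. Eif3l was not called at 0.10, with all KO libraries above wild type, but it was called higher with upper quartile factors (edgeR adjusted p = 0.0303), library totals alone (0.00453) or without wild-type replicate 1 (0.0274).

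The loosely attached j subunit has 2 genes, both low. Eif3j1 (chr2:122028546-122056598) gave 27.6, 27.7 and 26.1 CPM in wild type and 31.1, 34.1 and 32.7 CPM in KO. All KO libraries were higher, and it rose by 20.2% (log2 0.27 ± 0.06, edgeR adjusted p = 0.00423). Eif3j2, a near copy on another chromosome, stood at 0.489 ± 0.0597 and 0.694 ± 0.157 CPM and was not called (log2 0.51 ± 0.26, edgeR adjusted p = 0.132). How reads matching several gene copies were counted is not given, so values of Eif3j1 and Eif3j2, of Eif1a and Eif1ax, and of Eif1, Eif4a1 and Eif5a, which have processed pseudogenes, are uncertain to that extent. Exon bases shared with other gene models make up 20.2% of Eif3j1, 15.2% of Eif4a2 and 12.7% of Eif1b.

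Divided by principal transcript length, the RNA levels of the 12 eIF3 subunits other than j lay closer together in KO. The most abundant subunit in both groups was Eif3h, at 456 ± 20.3 CPM per kb in wild type and 383 ± 3.76 in KO. The least abundant was Eif3b, at 71.9 ± 6.29 CPM per kb in wild type and 110.0 ± 5.88 in KO. The ratio of the highest to the lowest mean level was 6.35 in wild type and 3.48 in KO, a description without a test. In wild type, Eif3k (332 CPM per kb), Eif3e (313), Eif3i (302), Eif3f (258) and Eif3m (221) followed Eif3h. They were followed in turn by Eif3d (183), Eif3c (179), Eif3a (148), Eif3l (141) and Eif3g (124). Neighbours in this order such as Eif3k, Eif3e and Eif3i, or Eif3d and Eif3c, differed by no more than about the SD between libraries. Every subunit that fell was among the 6 most abundant per length in wild type, and the 3 that rose were in the lower part of the order. Lengths are those of the principal transcript of each gene. In wild type the summed length of all exons changed the order between the ends, and Eif3e ranked 9 of 12. Eif3h stayed highest and Eif3b lowest there. In KO, with that length, Eif3e (406 CPM over 6719 bases) lies below Eif3b (324 CPM over 3346 bases). The ratios of 6.35 and 3.48 therefore hold for principal transcript lengths only. The same limit holds for the place of every falling subunit among the 6 most abundant.

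**Figure D2:**
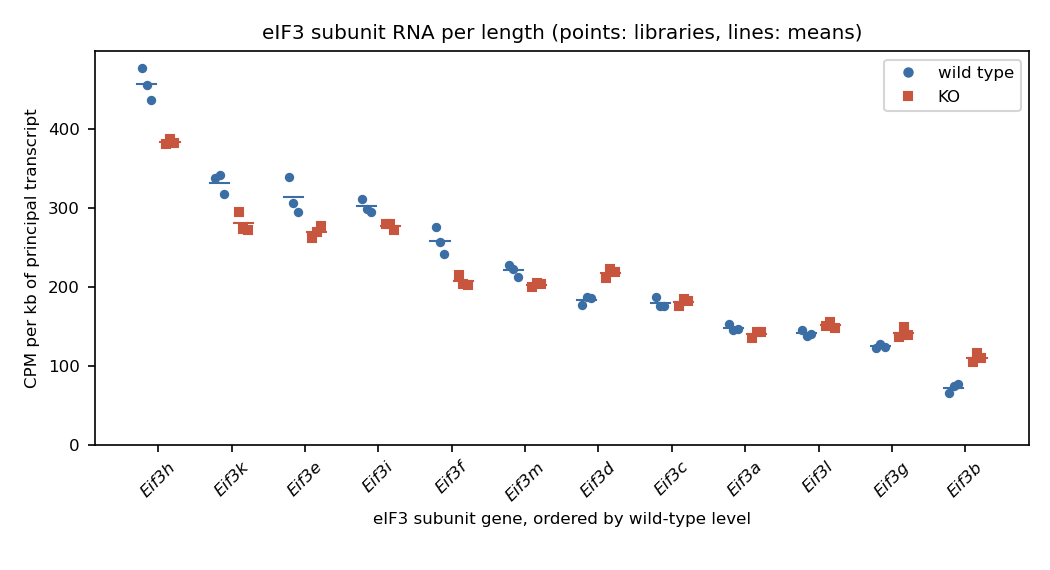
Points are the level in each library in CPM per kb of principal transcript, and lines the means of 3 libraries, for 12 eIF3 subunit genes ordered by their wild-type mean. From Eif3h to Eif3m the KO points lie below wild type, while Eif3d, Eif3l, Eif3g and Eif3b have KO points above it, so the range from Eif3h to Eif3b narrows from 456 and 71.9 in wild type to 383 and 110.0 in KO.

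The RNA helicase eIF4A, which unwinds the mRNA leader, changed in opposite directions in its 2 paralogs. Eif4a1 (chr11:69666936-69672423) gave 548, 569.9 and 548 CPM in wild type and 636, 731 and 686 CPM in KO. All KO libraries were higher, a rise of 23.2% (log2 0.30 ± 0.05, edgeR adjusted p = 0.00107). Eif4a2 (chr16:23107444-23114136) gave 813, 695 and 679 CPM in wild type and 621, 604 and 617 CPM in KO. It fell by 15.7% (log2 -0.25 ± 0.06, edgeR adjusted p = 0.00829). The KO libraries were all lower, but wild-type replicate 1 was far above its fellows, and without it the change was -0.16 (edgeR adjusted p = 0.00179). The helicase cofactors Eif4b and Eif4h were not called, with log2 changes of -0.01 and 0.07 and wild-type means of 991 and 426 CPM. With library totals alone Eif4h was called higher (edgeR adjusted p = 0.00902).

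The cap-binding proteins also differed from each other. Eif4e (chr3:138526179-138559696), the cap binder of eIF4F, gave 109.8, 109.7 and 111 CPM in wild type and 129, 135 and 142 CPM in KO. The wild-type values were almost the same and every KO library exceeded them, a rise of 22.8% (log2 0.30 ± 0.05, edgeR adjusted p = 0.000835). Eif4e3 (chr6:99625135-99666771), a cap-binding relative outside the classical eIF4F complex, gave 67.8, 59.8 and 58.2 CPM in wild type and 40.8, 38.7 and 40.5 CPM in KO. With no overlap it fell by 35.3%, the largest fall of the tested members (log2 -0.63 ± 0.07, edgeR adjusted p = 7.22e-05). Its exons overlap Gm20696 over 14.8% of their bases. Eif4e2, the cap binder known for repression of bound mRNAs, was not called, at 105 ± 3.42 and 108 ± 4.75 CPM (log2 0.03 ± 0.05, edgeR adjusted p = 0.6).

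All 3 eIF4G genes rose, with a median log2 change of 0.43. Eif4g1 (chr16:20668313-20692884), the scaffold that ties the cap binder to eIF3, gave 313, 365 and 381 CPM in wild type and 496, 557 and 529.9 CPM in KO. The lowest KO library was above the highest wild-type one, and the gene rose by 49.5% (log2 0.58 ± 0.07, edgeR adjusted p = 0.000168). Eif4g3, its closest paralog, rose from 163 ± 11.6 to 219 ± 7.03 CPM (log2 0.43 ± 0.06, edgeR adjusted p = 0.000246). Eif4g2, which lacks the eIF4E-binding part and serves cap-independent initiation, rose from 607 ± 22.7 to 739.8 ± 39.3 CPM (log2 0.29 ± 0.05, edgeR adjusted p = 0.00104). Across eIF4A, eIF4B, eIF4H, eIF4E and eIF4G together, 5 of 10 tested genes rose, 2 fell and 3 were not called, with a median of 0.18.

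None of the 4 genes for eIF4E-binding proteins was called, and their median was 0.08, or 0.03 without wild-type replicate 1 or KO replicate 1. Eif4ebp1, the repressor that releases eIF4E when mTORC1 phosphorylates it, gave 144, 135 and 133 CPM in wild type and 128, 128 and 122 in KO. All KO libraries were lower, but the change of -0.13 ± 0.05 on the log2 scale missed the threshold (edgeR adjusted p = 0.0558), and passed it with DESeq2 size factors (0.0480). Eif4ebp2, its paralog, stood at 83.2 ± 7.50 CPM in wild type and 91.8 ± 0.589 in KO (log2 0.14 ± 0.06, edgeR adjusted p = 0.0923). It was called higher with library totals alone (0.0285) or without wild-type replicate 3 (0.0252). Eif4enif1, the carrier that takes eIF4E into the nucleus, had a log2 change of 0.02. Eif4ebp3 was near the detection floor, at 0.347 ± 0.191 and 0.463 ± 0.158 CPM, and 67.3% of its exon bases overlap another gene model.

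Subunit joining and large subunit availability gave 2 rises among 2 genes. Eif6 (chr2:155819832-155826925), which keeps the large subunit from joining early and acts in its maturation, gave 57.9, 71.2 and 69.6 CPM in wild type and 95.6, 105 and 97.8 CPM in KO. The groups were well separated, and it rose by 49.8% (log2 0.58 ± 0.08, edgeR adjusted p = 0.000214). Eif5b, the GTPase that joins the subunits, rose by 0.29 on the log2 scale, and 16.8% of its exon bases overlap Rev1.

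Both eIF5A genes rose. The protein carries hypusine, a modified lysine, and helps ribosomes through difficult peptide bonds, so it acts in elongation and termination as well as initiation. Eif5a2 (chr3:28781276-28798846) gave 10.2, 11.3 and 13.1 CPM in wild type and 18.7, 21.6 and 20.7 CPM in KO. It had the largest rise of all tested members, 75.3% with no overlap (log2 0.81 ± 0.10, edgeR adjusted p = 0.000142). Eif5a, at 444 CPM per kb in wild type against 2.29 for Eif5a2, rose from 637 ± 22.9 to 896 ± 50.4 CPM (log2 0.49 ± 0.05, edgeR adjusted p = 7.02e-05).

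A pair of genes carry the family's name but act mainly elsewhere, and both rose. Eif4a3 (chr11:119288363-119300089), the RNA helicase of the exon junction complex that marks spliced mRNAs, gave 75.5, 91.7 and 88.3 CPM in wild type and 128, 140.5 and 131 CPM in KO. It rose by 55.9% with no overlap (log2 0.64 ± 0.07, edgeR adjusted p = 0.00011). Eif1ad (chr19:5366741-5371526), a protein with an eIF1A-like domain, gave 37.7, 44.9 and 41.4 CPM in wild type and 62.0, 67.3 and 62.3 CPM in KO. It too was higher in every KO library, a rise of 54.3% (log2 0.63 ± 0.07, edgeR adjusted p = 9.27e-05), with 15.3% of its exon bases overlapping Banf1 on the opposite strand. The remaining members, Eif4e1b, an oocyte form of eIF4E, and Eif2c5, a long noncoding RNA, had 0 counts in all 6 libraries. A count of 0 allows up to 3 counts, or 0.0864 to 0.121 CPM depending on the library and covering counting error only.

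**Figure D3:**
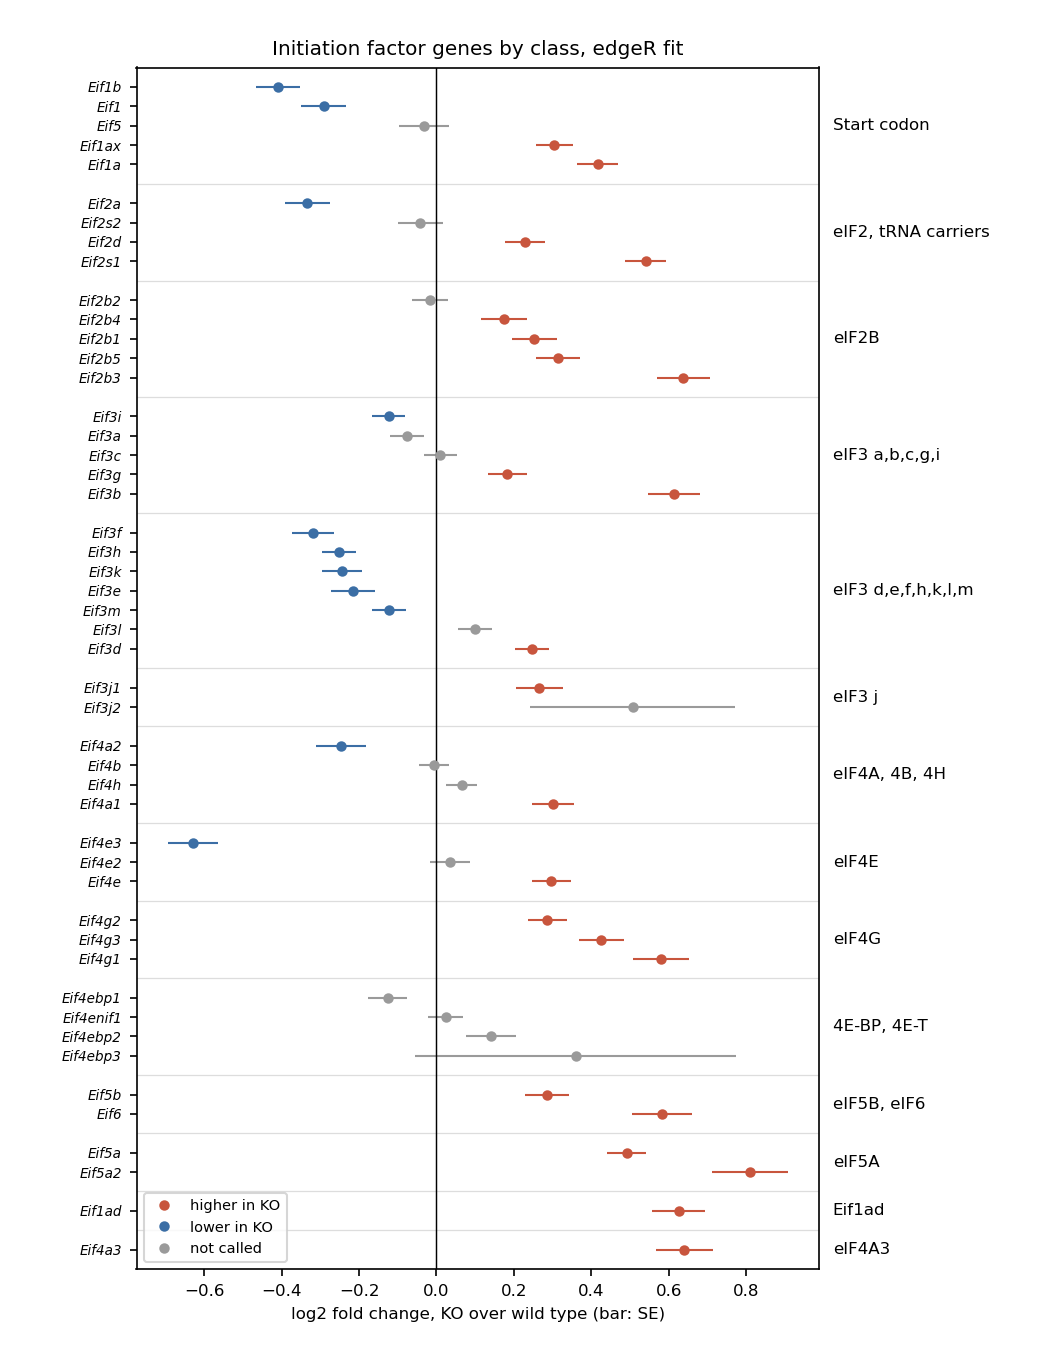
Points are log2 fold changes of KO over wild type from the edgeR fit and bars their standard errors, for the 48 tested members grouped by class, with red for higher, blue for lower and grey for not called. The eIF4G, eIF5B with eIF6 and eIF5A classes lie wholly to the right of 0, eIF3 subunits f, h, k, e and m lie to the left, and the ends of the scale are Eif4e3 at -0.63 and Eif5a2 at 0.81.

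Ratios of related genes within a library do not depend on how libraries are scaled. In 9 such pairs, the KO ratios were all above wild type in 5, all below in 3 and overlapping in 1. Each pair without overlap had an exact permutation p of 0.1, the smallest possible with 3 against 3, and 0.1125 after Benjamini-Hochberg adjustment over the 9 pairs, so none can pass 0.05 in this design. The ratio of Eif4a1 to Eif4a2 per length was 0.839, 1.02 and 1.00 in wild type and 1.27, 1.50 and 1.38 in KO, a log2 difference of 0.54. The 2 helicase RNAs were thus about equal per length in wild type, while Eif4a1 was ahead in every KO library. The ratio of the repressor Eif4ebp1 to its target Eif4e was 3.29, 3.07 and 2.99 in wild type and 2.48, 2.36 and 2.15 in KO. All KO ratios were lower, with a log2 difference of -0.42. Eif4ebp1 over Eif4ebp2 went from 5.54, 4.67 and 4.26 to 4.05, 3.999 and 3.86 (log2 difference -0.27), with wild-type replicate 1 the highest of the 6.

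In the cap-binding and scaffold families the ratio of the main form to each relative compared was higher in every KO library. Eif4e over Eif4e2 had a log2 difference of 0.26, Eif4g1 over Eif4g3 one of 0.16, and Eif4g1 over Eif4g2, as a plain count ratio, one of 0.30. Eif1 over Eif1b was higher by 0.12 on the same scale, a pair in which both genes fell. For Eif5a over Eif5a2 the difference was -0.33, since the rarer gene rose more, with per-length ratios of 211, 205 and 169 in wild type and 163, 155 and 146 in KO. Eif5a remained far above Eif5a2 in every library. Eif3j1 over Eif3j2 overlapped between the groups (log2 difference -0.20, exact permutation p = 0.4).

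**Figure D4:**
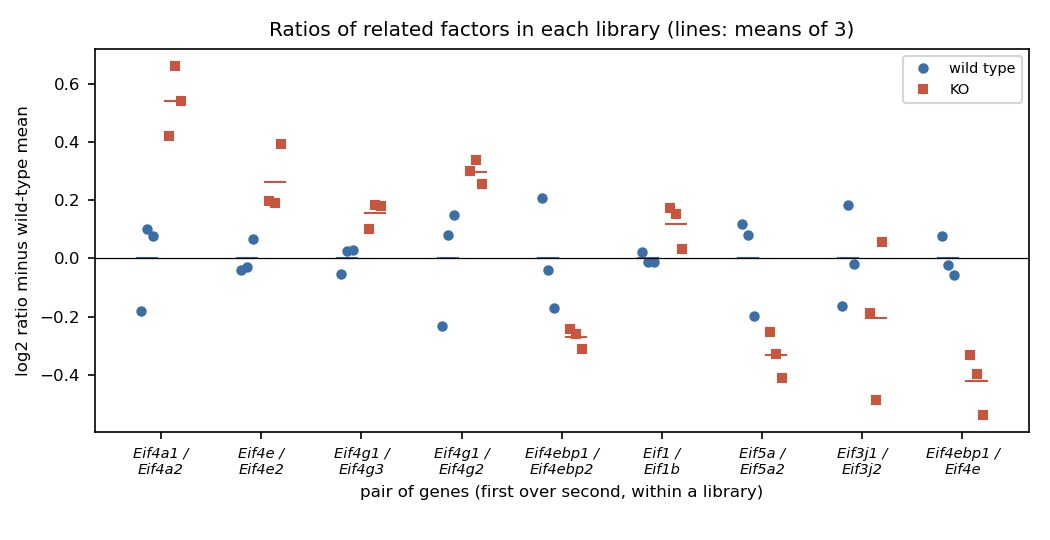
Each point is the log2 ratio of a pair of genes in a library minus the mean of the 3 wild-type libraries for that pair, with lines at the means of 3. KO points lie wholly above wild type for Eif4a1/Eif4a2 and 4 other pairs, wholly below it for 3 pairs including Eif4ebp1/Eif4e, and overlap it for Eif3j1/Eif3j2, where KO replicate 3 lies among the wild-type points and the other KO points below them.

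The genes around the factors were read from lists of their regulators and partners. Of 7 kinases and phosphatase subunits that act on eIF2, 2 rose, 2 fell and 3 were not called, so that 57.1% were called, near the 52.9% of all tested genes. The double-stranded RNA sensor Eif2ak2 (PKR) rose from 23.3 ± 2.61 to 42.0 ± 2.32 CPM (log2 0.85 ± 0.08, edgeR adjusted p = 5.33e-05). The kinase of endoplasmic reticulum stress, Eif2ak3 (PERK), fell from 88.6 ± 12.2 to 59.6 ± 3.54 CPM (log2 -0.57 ± 0.09, edgeR adjusted p = 0.000522). The second rise, of the phosphatase subunit gene Ppp1r15b (log2 0.17), was not called without wild-type replicate 2 (edgeR adjusted p = 0.0797), KO replicate 2 (0.0880) or KO replicate 3 (0.120). The median of the list was 0.01, the same as that of all tested genes at this rounding.

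Among 7 kinases and repressors acting on eIF4F, 1 rose, 3 fell and 3 were not called, with a median of -0.07. The 57.1% called here is again near that of all tested genes. Pdcd4, which blocks eIF4A, fell by 21.5% (log2 -0.35 ± 0.05, edgeR adjusted p = 0.000443), and Larp1, which binds the caps of ribosomal protein mRNAs, rose by 24.8% (log2 0.32 ± 0.05, edgeR adjusted p = 0.0005). Of 13 partners of initiation and ribosome recycling, 9 rose (69.2%, against 26.7% of all tested genes), 3 fell (23.1%, against 26.1%) and 1 was not called, with a median of 0.37. Abcf1, an ATPase that associates with eIF2 and ribosomes, gave 117, 135 and 138 CPM in wild type and 189.7, 205 and 196 CPM in KO. Its groups did not overlap (log2 0.60 ± 0.06, edgeR adjusted p = 8.73e-05). Paip2, an inhibitor of the poly(A)-binding protein, fell from 208 ± 29.1 to 131 ± 6.16 CPM (log2 -0.66 ± 0.09, edgeR adjusted p = 0.000213). With library totals alone 1 of the 3 falls was called. The risers of this list include Ddx3x and Mcts1, which lie on the X chromosome, and Mcts1 was not called without wild-type replicate 3 (edgeR adjusted p = 0.0633), KO replicate 2 (0.0503) or KO replicate 3 (0.0718).

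Both enzymes that make hypusine on eIF5A rose, Dhps by 26.6% (log2 0.34 ± 0.06, edgeR adjusted p = 0.000672) and Dohh by 27.3%, though 47.5% of the exon bases of Dohh overlap Gm48551. Elongation and termination genes split, with 2 of 8 higher, 3 lower and 3 not called (62.5% called, against 52.9% of all tested genes) and a median near 0. The release factor Etf1 rose by 40.3% (log2 0.49 ± 0.05, edgeR adjusted p = 9.27e-05), and the elongation factor Eef1a1, which brings tRNAs to the ribosome, fell by 20.1% (log2 -0.32 ± 0.04, edgeR adjusted p = 0.000138). Of the 3 genes of mitochondrial initiation, Mtif2 rose by 0.26 ± 0.08 (edgeR adjusted p = 0.0179) and Mtif3 fell by 0.22 ± 0.07 (edgeR adjusted p = 0.017), and Mtfmt, which formylates the initiator tRNA, was not called. The 66.7% called is of only 3 genes, against 52.9% of all tested genes, and neither call held in all settings. Mtif2 was not called without KO replicate 2 (edgeR adjusted p = 0.0729) or KO replicate 3 (0.0506), and Mtif3 was not called without wild-type replicate 2 (0.0522) or KO replicate 2 (0.0603) or with library totals alone (-0.15, adjusted p = 0.103).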

How the data were processed

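RNA was measured in 3 wild-type and 3 KO libraries. The authors' deposited file holds unnormalized counts, 1 row per gene symbol. Per the labels' protocols, RNA was purified on columns and libraries came from a stranded mRNA kit. Tools listed in the submitters' processing notes, with no roles, are STAR 2.5.2, HTSeq 0.6.1, FastQC, Cufflinks and DESeq2 1.12, on mm10. For the strand setting and annotation release, the sources used here give nothing.

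The test was edgeR 4.0.16 in R 4.3.3: TMM scaling (factors 0.949 to 1.03), filterByExpr (14209 genes, 99.9% of counts), and a 2-sided quasi-likelihood F test between genotypes (4 residual degrees of freedom), with Benjamini-Hochberg adjustment over all tested genes. The biological coefficient of variation was 6.13%. Replicates differed beyond sampling noise (chi-square per gene 2.56 to 13.6). Ratios used counts plus 0.5 and an exact 2-sided permutation test. Positions and lengths are from GENCODE release M21, matched by symbol for all 50 members. Per-length levels used the principal transcript, which was not taken for Eif4g2. In 27 rows a spreadsheet had turned the symbol into a date (0.241% of counts). These rows stayed in the totals and are not named.

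Members, classes and lists were chosen with earlier results of these data known. By rule, each class has library values for its called member with the largest rise and the largest fall, paired genes have full statistics, other called members their fold change, and each other list its called member with the smallest adjusted p in each direction. Eif4ebp1, Dohh, Ppp1r15a, Ppp1r15b, Ddx3x and Mcts1 were given beyond the rule after their values were seen, as was the motif. Alternatives were DESeq2 size factors, upper quartile factors or library totals alone in edgeR, no filter, 1 CPM in 3 libraries, the replicate block, each library left out, chromosomes X and Y left out, DESeq2 1.42.0, limma-voom with limma 3.58.1, an adjusted p under 0.01, and for ratios a pseudocount of 5 or none. Figures used matplotlib 3.10.9 in Python 3.11.15.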

Additional observations from a re-analysis of the deposited data

How the results depend on the processing

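Of the 34 called members, 30 kept their call and all kept their direction under the 16 alternatives, Eif1ax having no value without chromosomes X and Y. The 4 that lost it under at least 1 were Eif2b4, Eif3g, Eif3i and Eif3m. Over the alternatives 21 to 26 members were higher and 9 to 12 lower, each within 1.5 times of the reported counts. The median member change was 0.18 as reported, 0.25 with library totals alone and 0.13 to 0.20 when 1 library was left out.

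Same-numbered libraries correlated at 0.174, 0.126 and 0.0112 in their deviations from the group means. Different-numbered ones ran from -0.172 to 0.105, so the values for replicates 1 and 2 were the highest and that for replicate 3 was not. Whether the numbers pair the libraries cannot be told from these values, and the main fit left them unpaired. With the replicate block, 24 members were higher and 12 lower, the median was 0.18, and the smallest ratio p the design allows is 0.25. The block called Eif4ebp1 lower (edgeR adjusted p = 0.0296) and Eif4ebp2 higher (0.0479). Wild-type replicate 3 correlated best with KO replicate 2 (0.105). Counting precision was lowest for Eif3j2 and Eif4ebp3, the tested members under 1 CPM. Medians of classes that mix both directions lie near 0 and moved with library totals alone, to 0.11 for eIF4E proteins, 0.11 for eIF4A, eIF4B and eIF4H, 0.17 for the tRNA carriers, 0.09 for eIF3 a, b, c, g and i and 0.16 for the eIF4E-binding proteins. Without chromosomes X and Y the start codon median was -0.16. At an adjusted p under 0.01, 1 eIF2 kinase or phosphatase gene was higher, 1 partner gene lower and no mitochondrial initiation gene called, and with library totals alone 2 eIF4F regulators were higher.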
